A study of Mus musculus with 18 samples.

Results

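The histone genes were described in RNA of haematopoietic stem cells (HSCs), taken as the genes whose symbol begins with Hist1h to Hist4h, H2af, H3f3 or H1f, or with the current forms of these names. Of 23038 genes in the tables, 78 matched, and the 64 with at least 1 RPKM (reads per kilobase of gene and M reads, M being 1e6) in any of 6 columns were kept. They hold 54 replication-dependent genes (4 for H1, 14 for H2A, 17 for H2B, 7 for H3 and 12 for H4) and 10 others, which are replacement variants and linkers. On the GRCm38 assembly 47 of the 64 lie on chromosome 13, 6 on chromosome 3, 4 on chromosome 11 and 3 on chromosome 6, with 1 each on chromosomes 1, 9, 10 and 15. The 14 genes left out had less than 1 RPKM in every column, 5 of them without a read. Just outside the threshold lay Hist2h4 at 0.950 and Hist2h3c1 at 0.901 RPKM, and just inside it Hist1h2bq at 1.16 and Hist4h4 at 1.16 RPKM.

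The study set out to find RNAs of adult HSCs that carry N6-methyladenosine (m6A), a methyl mark on RNA that Mettl3 writes. The Mettl3-deficient group came from Mx1-cre; Mettl3fl/fl C57BL/6 mice and the reference from Wild-type C57BL/6 mice (WT). Animals of both genotypes got 5 doses of 10 µg pIpC, a double-stranded RNA that switches on Mx1-cre through interferon, so both groups had been exposed to it, and were killed 10 days after the last dose. The Mx1 promoter is active in many cells besides blood cells, so the deletion is not limited to HSCs. The sort kept 3000 bone marrow cells per sample that were Lineage-, Sca1+, cKit+, CD150+ and CD48-. Poly(A)+ RNA, captured on oligo-dT beads, was incubated with 1.25 µg of an anti-m6A antibody. RNA released by free m6A nucleotide is called m6A-tagged, RNA in the washes unbound, and RNA set aside beforehand input. Each of the 6 groups has 3 libraries, 18 in all, which the series' design text calls biological replicates. No fragmentation of the RNA is described, so the values are per gene and do not place a methylated base.

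Histones package DNA. The core histones H2A, H2B, H3 and H4 form the nucleosome, and H1 binds the linker DNA between nucleosomes. Replication-dependent histone genes stand in clusters and are transcribed mainly in S phase, when new DNA has to be packaged. Their mRNAs normally end in a stem-loop bound by Slbp and carry no poly(A) tail, although some of these genes also make polyadenylated forms, in particular in cells that have stopped dividing. Replacement variants such as H3.3 and H2A.Z are made throughout the cell cycle from polyadenylated mRNAs. Poly(A)+ selection therefore keeps the mRNA of the replacement variants and only that fraction of replication-dependent histone mRNA that carries a tail or another run of A.

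Each deposited column is the mean of the 3 libraries of a group, and 1 read had been added to every gene in every library. These means have no replicate check. For genes with few reads the numbers behind a mean could be solved, which gave the reads of each library separately. All 18 libraries were solved for 48 of the 54 replication-dependent members and for none of the 10 others, whose read numbers are too high. Depth was 25.89 to 33.59 M reads in Mettl3-deficient m6A-tagged, 12.24 to 27.27 M in Mettl3-deficient unbound and 9.42 to 30.06 M in Mettl3-deficient input libraries. In WT libraries it was 30.32 to 34.99 M for m6A-tagged, 24.30 to 27.38 M for unbound and 28.33 to 37.22 M for input RNA. Mettl3 itself had 17.4, 11.2 and 19.6 RPKM in m6A-tagged, unbound and input RNA of Mettl3-deficient cells, against 36.1, 33.2 and 36.4 RPKM in WT cells. The 12 HSC markers summed to between 1105 and 1300 RPKM in the Mettl3-deficient columns and between 1073 and 1099 RPKM in the WT columns. None of the 12 was under 1 RPKM in the m6A-tagged or input columns. In unbound RNA 1 of the 12 was, at 0.915 RPKM in Mettl3-deficient and 0.543 RPKM in WT cells. There 1 gene gave most of the sum, with 750.7 of 1300 RPKM in Mettl3-deficient and 598.8 of 1073 RPKM in WT cells.

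Summed over the solved genes, replication-dependent histone RNA was lower in Mettl3-deficient HSCs than in WT HSCs in all 3 fractions. In input RNA the 48 solved genes together had 22.02, 47.7 and 13.6 reads per M in the Mettl3-deficient libraries, against 71.9, 79.1 and 86.3 in the WT libraries. In unbound RNA their sums were 50.4, 32.0 and 41.9 reads per M in Mettl3-deficient libraries, against 152.0, 127.6 and 196.1 in WT libraries. In m6A-tagged RNA they were 78.6, 32.5 and 18.4 in Mettl3-deficient libraries, against 137.8, 79.3 and 129.7 in WT libraries. The groups did not overlap in any fraction, although the highest Mettl3-deficient m6A-tagged library lay just under the lowest WT one. The means differed 2.85-fold in input, 3.83-fold in unbound and 2.68-fold in m6A-tagged RNA, with the Mettl3-deficient mean below in each. The sums are a description and were not tested. Of the 48 genes 20 reached 1 RPKM in WT columns only and 0 in Mettl3-deficient columns only. Those 20 had to be lower in Mettl3-deficient cells in some fraction, which favours lower Mettl3-deficient sums. In these bulk samples, fewer cells that make a transcript cannot be told apart from less of it per cell.

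**Figure D1:**
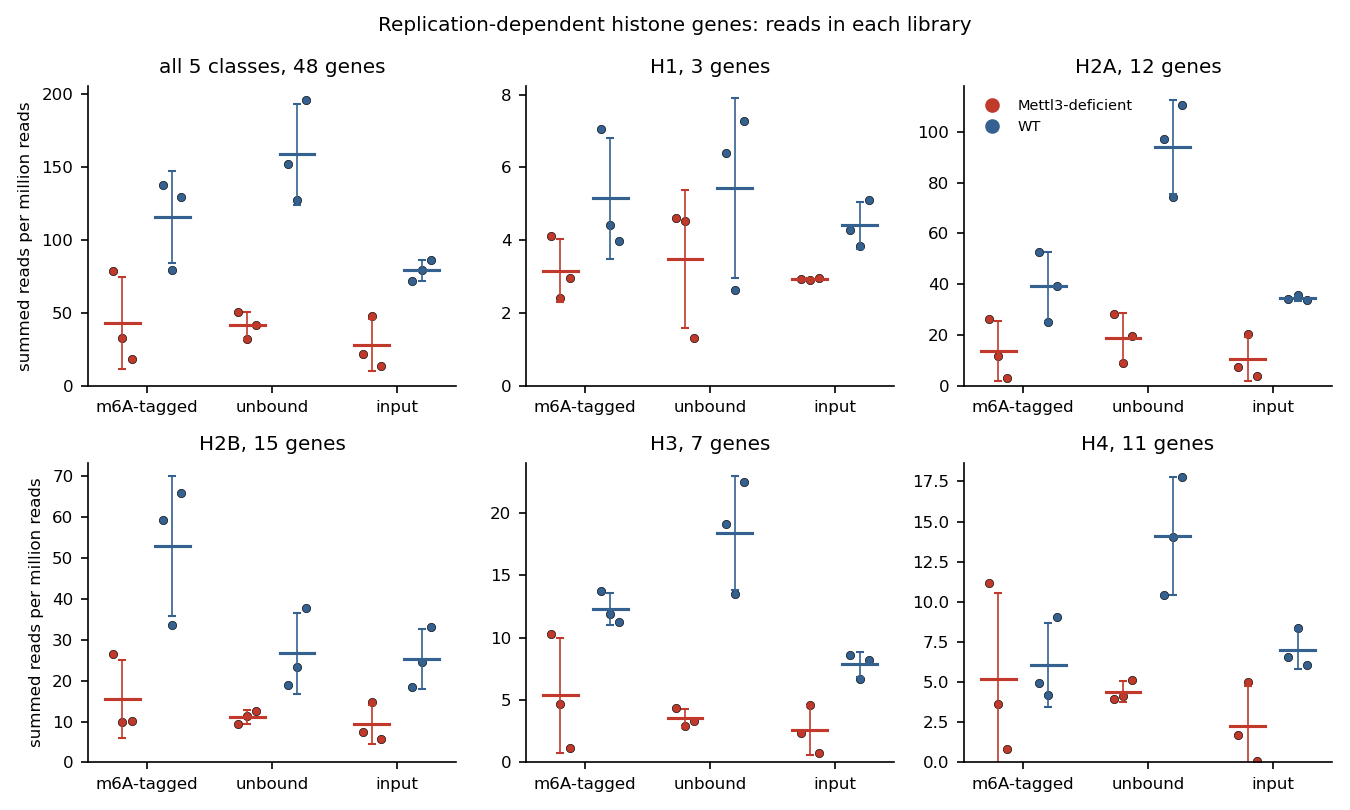
Summed reads per M reads of the solved replication-dependent histone genes in each library (y axis, linear), by fraction (x axis), for all 48 genes and for each class. Points are single libraries, horizontal bars the mean and whiskers the SD of 3 libraries, red for Mettl3-deficient and blue for WT. For all 48 genes the Mettl3-deficient libraries lie between 13.6 and 78.6 and the WT libraries between 71.9 and 196.1. Of the 48 genes 20 reached 1 RPKM in WT columns only.

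The classes did not differ by genotype to the same size. H2A genes, 12 of them solved, averaged 10.7 ± 8.63 reads per M in Mettl3-deficient input and 34.5 ± 0.989 in WT input (SD, n = 3 each). In unbound RNA they averaged 18.9 ± 9.61 in Mettl3-deficient and 94.0 ± 18.5 in WT libraries (SD, n = 3 each), a 4.97-fold lower mean in Mettl3-deficient cells. H3 genes, 7 solved, averaged 3.55 ± 0.731 reads per M in Mettl3-deficient unbound RNA and 18.4 ± 4.55 in WT unbound RNA, a 5.17-fold lower mean. Most of both H3 means came from Hist1h3d alone, with 2.56 reads per M in Mettl3-deficient and 14.5 in WT unbound RNA. H2B genes, 15 solved, were lowest against WT in m6A-tagged RNA, with 15.6 ± 9.56 in Mettl3-deficient and 53.0 ± 17.1 reads per M in WT libraries. H4 genes, 11 solved, were 3.08-fold lower in input and 3.19-fold lower in unbound RNA of Mettl3-deficient cells. Their m6A-tagged sums overlapped, at 11.2, 3.63 and 0.850 reads per M in Mettl3-deficient libraries and 4.97, 4.19 and 9.07 in WT libraries. Hist1h4d alone gave 2.81 of the Mettl3-deficient m6A-tagged mean of 5.22 reads per M. The 3 solved H1 genes averaged 2.93 ± 0.0372 reads per M in Mettl3-deficient input and 4.41 ± 0.654 in WT input, a 1.5-fold lower mean. Most of both H1 means came from Hist1h1e, with 2.62 reads per M in Mettl3-deficient and 2.64 in WT input. Differences between classes were not tested, and the class sums include the members that reached 1 RPKM in WT columns only.

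How a gene reached the minimum level bears on every sum and count of genes. Of the 48 solved members 20 reached 1 RPKM in WT columns only, 28 in columns of both genotypes and 0 in Mettl3-deficient columns only, against 30.4%, 54.3% and 15.3% of the 1826 solved genes. Members that entered through WT columns alone had to be lower in Mettl3-deficient cells in some fraction, so counts over all 48 are a description and no support for a difference. In input RNA 24 of 48 solved members had all 3 Mettl3-deficient libraries below all 3 WT libraries, against 16% of the 1826 genes, and 1 member lay above (4.98%). In unbound RNA 25 of 48 lay below (9.64% of the 1826 genes) and none above. In m6A-tagged RNA 18 of 48 lay below (9.8%) and none above, with 28 below when Mettl3-deficient library a was left out. With fewer libraries groups separate more easily, and the share over all genes without that library is not given. Among the 28 members with at least 1 RPKM in columns of both genotypes, 14 lay below in input, 14 in unbound and 10 in m6A-tagged RNA, and 1, 0 and 0 above. Of the 991 solved genes of that kind 16.5%, 9.49% and 9.89% lay below and 4.44%, 6.96% and 9.49% above, in the same order. The H2A and H2B genes gave most of the separated members, with 8 of 12 and 10 of 15 in input. Some H2A rows are near-identical copies, so the rows counted here and below are not independent of each other. H3 genes gave 1 of 7 and H4 genes 4 of 11 there. Two-sided exact permutation tests with 3 libraries against 3 cannot go below p = 0.1, and of 450 values tested 120 reached it, with an adjusted p of 0.375.

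limma, a linear model that shares the estimate of the spread across genes, was fitted to log2(reads per M + 0.1) of the 1826 genes over all 18 libraries. At an adjusted p under 0.05 (Benjamini-Hochberg over the 1826 genes), 9 members fell in Mettl3-deficient unbound RNA, against 2.9% of all genes called lower. In input RNA 3 members fell (0.712% of all genes) and in m6A-tagged RNA 3 members fell (1.26%). No member rose in these 3 comparisons. Members that had reached 1 RPKM in WT columns only made up 4 of the 9 unbound calls (Hist1h2af, Hist1h2ak, Hist1h2ba and Hist1h2bq), 2 of the 3 input calls (Hist1h2af and Hist1h4a) and all 3 m6A-tagged calls (Hist1h2af, Hist1h2ba and Hist1h4a). Their entry already required them to be lower in Mettl3-deficient cells in some fraction, so their p-values are no independent support. Among the 28 members with at least 1 RPKM in columns of both genotypes, 5 were called lower in unbound, 1 in input and 0 in m6A-tagged RNA. Of the 991 solved genes of that kind 26, 4 and 7 were, in the same order. The calls also rest on few libraries. Without any 1 of the 6 input libraries none of the 3 input calls held. In unbound RNA the count was 6 without Mettl3-deficient library a, 4 without Mettl3-deficient library b, 3 without Mettl3-deficient library c, and 3, 5 and 2 without WT libraries a, b and c, the letters giving libraries from deep to shallow. In m6A-tagged RNA it was 0 without Mettl3-deficient library b or c and 5 without WT library b. With a minimum mean of 0.3 reads per M it was 0 in input, 0 in m6A-tagged and 4 in unbound RNA.

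Hist1h2af, which encodes a core histone H2A, had the largest fitted difference of the members called. It had 0.293, 0 and 0 reads per M in Mettl3-deficient unbound libraries, against 6.98, 4.05 and 8.27 in WT unbound libraries. In input it had 0.0665, 0.0453 and 0 in Mettl3-deficient libraries, against 1.94, 1.92 and 2.22 in WT libraries. The Mettl3-deficient libraries held from no read to a few reads of this gene and all WT libraries lay well above them. The limma log2 difference was -5.31 (SE 0.70, adjusted p = 0.0011) in unbound, -3.98 (SE 0.70, adjusted p = 0.023) in input and -2.94 (SE 0.70, adjusted p = 0.035) in m6A-tagged RNA. The unbound call held in 6 of 6 fits without 1 library, with adjusted p from 0.00074 to 0.01. The m6A-tagged call held in 1 of 6 such fits and the input call in none, with adjusted p up to 0.11 and up to 0.096. Hist1h2af reached 1 RPKM in WT columns only, with at most 0.434 RPKM in a Mettl3-deficient column. Its p-values and these fits are therefore no independent support.

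Hist1h2ak, another H2A gene, had 0.110, 0.0718 and 0 reads per M in Mettl3-deficient unbound libraries, against 3.07, 2.25 and 4.61 in WT unbound libraries. The groups stood far apart, and the log2 difference was -4.42 (SE 0.82, limma adjusted p = 0.0087). This call also held in 6 of 6 fits without 1 library, with adjusted p from 0.014 to 0.04. Hist1h2ak too reached 1 RPKM in WT columns only, with at most 0.921 RPKM in a Mettl3-deficient column. Its p-values are therefore no independent support. Hist1h2ah had 2.71, 1.08 and 0.981 reads per M in Mettl3-deficient unbound libraries, against 13.0, 9.15 and 12.6 in WT libraries. Its limma log2 difference was -2.91 (SE 0.63, adjusted p = 0.02) in unbound and -2.96 (SE 0.63, adjusted p = 0.047) in input RNA. The input values were 0.333, 0.815 and 0.212 in Mettl3-deficient libraries, against 3.84, 3.35 and 4.20 in WT libraries, again without overlap. Leaving out 1 library kept 2 of 6 unbound fits under the threshold and none of the input fits.

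Near-identical copies limit what these rows can tell. In WT input, for example, 2 H2A genes ran side by side, as Hist1h2ag had 4.73, 4.46 and 4.52 reads per M and Hist1h2ai had 4.27, 4.37 and 4.06. How reads that fit several genes were counted is not given in the sources used here, so such rows cannot be read as separate genes. Hist1h2ai was among the members that fell in unbound RNA, with 4.03, 0.934 and 1.47 reads per M in Mettl3-deficient libraries and 12.9, 8.89 and 13.5 in WT libraries (log2 difference -2.63, SE 0.68, limma adjusted p = 0.045). This call held in 1 of 6 fits without 1 library, with adjusted p up to 0.14. Of the 64 members 6 overlap another RefSeq gene, namely H2afy, H2afy2, Hist1h2ba, Hist1h2be, Hist3h2a and Hist3h2ba.

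Hist1h4a, an H4 gene, had no read in any of the 3 Mettl3-deficient input libraries, against 0.188, 1.08 and 0.494 reads per M in WT input libraries. The 0 reads among 61.56 M allow up to 0.0487 reads per M (3 reads over the group), and the pooled WT level of 0.576 was at least 11.8-fold higher. In m6A-tagged RNA it had 0.0298, 0.131 and 0.116 reads per M in Mettl3-deficient libraries, against 1.14, 1.13 and 0.957 in WT libraries. Neither comparison overlapped, and limma gave adjusted p = 0.048 in input and adjusted p = 0.021 in m6A-tagged RNA. The m6A-tagged call held in 3 of 6 fits without 1 library and the input call in none. Hist1h2ba, an H2B gene known mainly from testis, had no read in Mettl3-deficient input or unbound libraries. It had 0.242, 0.329 and 0.706 reads per M in WT input and 0.292, 0.3 and 0.658 in WT unbound libraries. The pooled WT level was at least 8.29-fold higher in input and at least 7.27-fold higher in unbound RNA. limma called it lower in unbound (adjusted p = 0.023) and in m6A-tagged RNA (adjusted p = 0.032), which held in 2 of 6 and 4 of 6 fits without 1 library. Both genes reached 1 RPKM in WT columns only, with at most 0.444 RPKM (Hist1h4a) and 0.165 RPKM (Hist1h2ba) in a Mettl3-deficient column. Limits from counts of 0 cover counting error only.

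The remaining members that fell in unbound RNA came from 3 classes. Hist1h1b, the linker H1.5, had 0, 0.503 and 0 reads per M in Mettl3-deficient libraries, against 2.01, 1.5 and 1.399 in WT libraries (limma adjusted p = 0.045). Hist1h2bj had 0.0367, 0.215 and 0.490 reads per M in Mettl3-deficient libraries, against 1.61, 2.51 and 2.63 in WT libraries (limma adjusted p = 0.032). Hist1h2bq had 0.183, 0.646 and 0.245 in Mettl3-deficient libraries, against 2.70, 3.00 and 3.13 in WT libraries (limma adjusted p = 0.044). All 3 were without overlap between genotypes, and each call held in 1 of 6 fits without 1 library. Hist1h3d, an H3 gene, had 3.74, 1.58 and 2.37 reads per M in Mettl3-deficient libraries, against 15.1, 10.2 and 18.2 in WT libraries (limma adjusted p = 0.025), a call that held in 2 of 6 such fits. Of these members Hist1h2bq had reached 1 RPKM in WT columns only, so its p-value is no independent support.

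**Figure D2:**
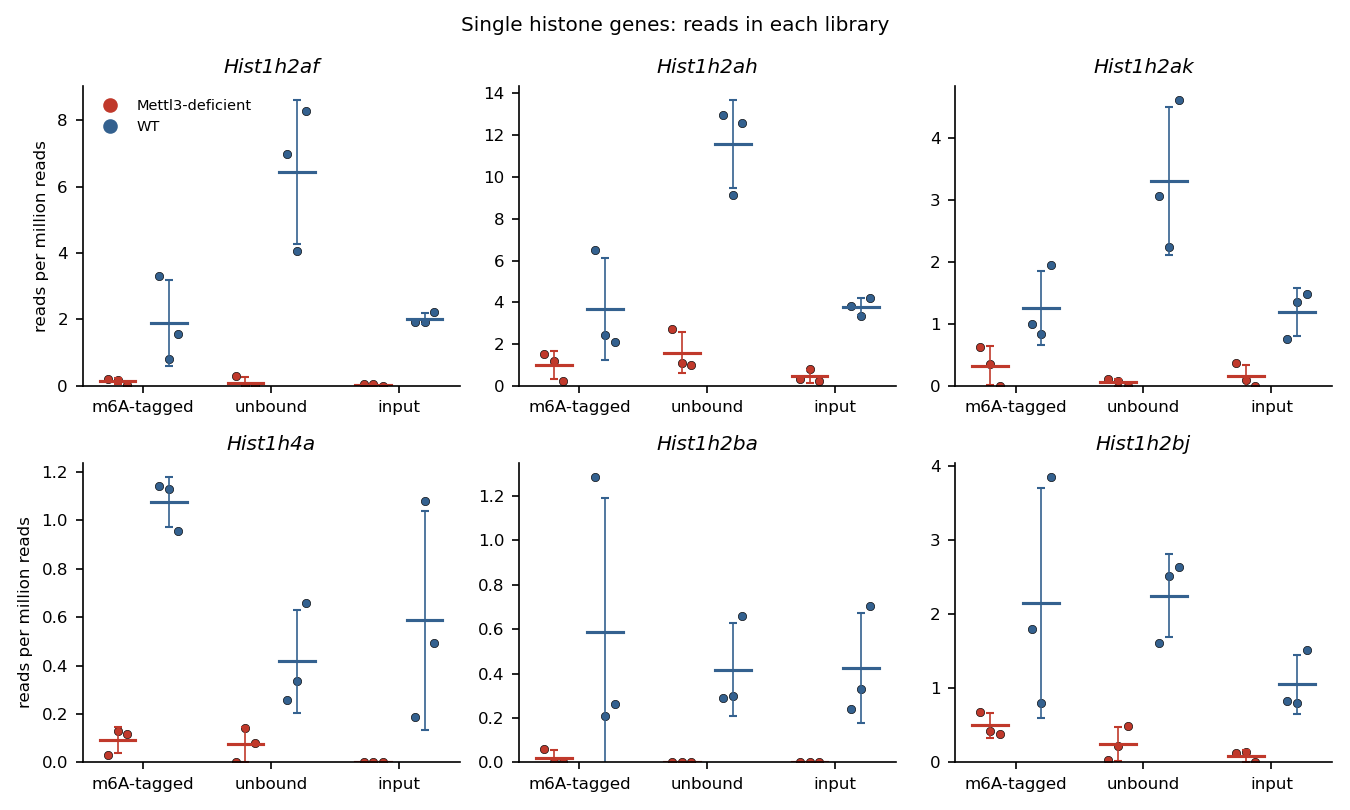
Reads per M reads of 6 replication-dependent histone genes in each library (y axis, linear), by fraction (x axis). Points are single libraries, horizontal bars the mean and whiskers the SD of 3 libraries, red for Mettl3-deficient and blue for WT. For Hist1h2af the 9 Mettl3-deficient libraries lie between 0 and 0.293 reads per M and the 9 WT libraries between 0.801 and 8.27. Hist1h2af, Hist1h2ak, Hist1h4a and Hist1h2ba reached 1 RPKM in WT columns only.

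Promoter sequence is shown for 5 members with a call in these comparisons and for 2 abundant replacement variants, to set the control regions of both kinds of gene side by side. Capitals mark 3 motifs searched on both strands, the TATA box (TATAAA), the CCAAT box (CCAAT) and the octamer (ATTTGCAT). Each line gives the 100 bases before the transcription start, read in the direction of transcription (RefSeq, GRCm38.p6). These lie, in the order shown, at chr13:23533775-23533874 (plus strand), chr13:22035644-22035743 (minus), chr13:23761250-23761349 (minus), chr13:23934157-23934256 (minus), chr13:22043098-22043197 (plus), chr3:137864387-137864486 (plus) and chr11:116024505-116024604 (minus).
Hist1h2af: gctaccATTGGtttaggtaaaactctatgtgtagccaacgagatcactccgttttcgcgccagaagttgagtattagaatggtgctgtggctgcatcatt
Hist1h2ah: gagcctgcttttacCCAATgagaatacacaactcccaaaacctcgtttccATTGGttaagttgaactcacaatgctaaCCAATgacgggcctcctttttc
Hist1h4a: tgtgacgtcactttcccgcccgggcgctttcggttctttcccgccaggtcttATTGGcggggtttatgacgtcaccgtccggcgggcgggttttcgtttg
Hist1h2ba: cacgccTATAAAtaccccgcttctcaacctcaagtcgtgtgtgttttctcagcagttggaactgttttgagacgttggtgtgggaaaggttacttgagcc
Hist1h2bj: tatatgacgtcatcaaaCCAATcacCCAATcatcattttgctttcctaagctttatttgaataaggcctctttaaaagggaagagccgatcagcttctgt
H2afz: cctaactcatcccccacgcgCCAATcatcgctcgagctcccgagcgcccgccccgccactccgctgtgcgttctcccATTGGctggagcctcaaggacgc
H3f3b: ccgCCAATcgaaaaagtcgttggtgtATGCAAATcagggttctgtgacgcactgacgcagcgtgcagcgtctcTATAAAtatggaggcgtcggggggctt

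Of the 64 members 60 had a promoter in the RefSeq table. Within the 250 bases before the start, CCAAT was present in 42 of 51 replication-dependent promoters (82.4%) and 5 of 9 other histone promoters, against 34.5% of 27025 promoters of all genes. It was present in all 14 H2A and all 15 H2B promoters and in 3 of 12 H4 promoters. TATAAA was present in 26 of 51 replication-dependent promoters (51.0%) and 1 of 9 other histone promoters, against 13.0% of all promoters. The octamer was present in 12 of 51 (23.5%), 6 of them H2A and 6 H2B promoters. It was present in 1 of 9 other histone promoters and in 1.6% of all promoters. These matches are a description of the letters and not of factor binding.

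In input 1 of 48 solved members had all 3 Mettl3-deficient libraries above all 3 WT libraries, against 4.98% of the 1826 genes. This was Hist2h2aa1, an H2A gene of the chromosome 3 cluster. It had 0.765, 1.40 and 0.743 reads per M in Mettl3-deficient input, against 0.215, 0.389 and 0.0706 in WT input. limma did not call Hist2h2aa1 there (log2 difference 1.79, SE 1.1, adjusted p = 0.71). The neighbouring Hist2h2ac had 1.1, 0.144 and 2.29 reads per M in Mettl3-deficient unbound libraries, against 0.621, 0.225 and 0.288 in WT libraries, which overlap. Hist2h2be, an H2B gene whose row has a length of 2618 bases, had 5.29, 6.02 and 4.88 reads per M in Mettl3-deficient input and 6.53, 8.71 and 8.44 in WT input. Hist1h1e, the linker H1.4, had 2.43, 2.67 and 2.76 reads per M in Mettl3-deficient input and 2.79, 2.19 and 2.93 in WT input, with overlap. In the pooled m6A-tagged columns Hist2h2be was 2.48-fold lower in Mettl3-deficient cells on the log2(RPKM + 1) scale. Over the single m6A-tagged libraries limma did not call it (log2 difference -1.57, SE 1.34, adjusted p = 0.56).

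In the pooled columns the replication-dependent members with a mean of at least 10 RPKM numbered 7, and folds from here on are on the log2(RPKM + 1) scale, which understates changes of low values. Hist1h2ao, an H2A gene, had 4.34, 12.4 and 2.97 RPKM in m6A-tagged, unbound and input RNA of Mettl3-deficient cells, against 28.6, 89.5 and 30.9 RPKM in WT cells. Hist1h2ai had 2.76, 5.62 and 1.69 RPKM in Mettl3-deficient and 10.3, 30.1 and 10.9 RPKM in WT cells, in the same order. Hist3h2a had 6.05, 8.41 and 4.10 RPKM in Mettl3-deficient and 14.8, 14.6 and 12.5 RPKM in WT cells. All 3 H2A genes were lower in every Mettl3-deficient column, by 8.02-fold for Hist1h2ao, 4.4-fold for Hist1h2ai and 2.64-fold for Hist3h2a in input.

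Hist1h1c, the linker H1.2, had 15.4, 3.52 and 8.82 RPKM in m6A-tagged, unbound and input RNA of Mettl3-deficient cells, against 36.4, 2.73 and 14.02 RPKM in WT cells. Hist1h4i had 9.21, 9.49 and 9.64 RPKM in Mettl3-deficient and 31.7, 17.4 and 19.9 RPKM in WT cells. Hist1h2bc had 24.6, 23.0 and 16.1 RPKM in Mettl3-deficient and 56.4, 29.5 and 33.1 RPKM in WT cells. These 3 were more than 2-fold lower in Mettl3-deficient m6A-tagged RNA and under 2-fold lower in input. With 0.1 RPKM added in place of 1, Hist1h4i and Hist1h2bc passed 2-fold in input too, both at -1.04 on the log2 scale. Hist1h2bg alone of the 7 was higher in Mettl3-deficient input, with 27.2, 8.02 and 25.4 RPKM in Mettl3-deficient and 15.9, 10.0 and 13.1 RPKM in WT cells. Its solved input libraries were uneven, at 5.59, 39.6 and 1.49 reads per M in Mettl3-deficient and 1.88, 18.9 and 3.39 in WT cells, so that 1 library of each genotype held most of the reads.

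Among the 16 members with a mean of at least 10 RPKM, 5 were 2-fold lower and 0 higher in Mettl3-deficient input, against 6.67% and 2.38% of 6295 genes. In m6A-tagged RNA 7 were lower and 0 higher (7.15% and 6.02% of genes), and in unbound RNA 4 were lower and 2 higher (22.7% and 19.7%). Over all 64 members, 20 were 2-fold lower in input (9.62% of 12724 genes), 27 lower and 1 higher in m6A-tagged RNA (13.2% and 6.76%), and 26 lower and 4 higher in unbound RNA (20.4% and 14.9%). The 1 higher in m6A-tagged RNA was Hist1h4d, an H4 gene, with 9.12 RPKM in Mettl3-deficient and 2.04 RPKM in WT cells. Over its single m6A-tagged libraries limma did not call it (log2 difference 1.93, SE 1.25, adjusted p = 0.43). The median log2 difference of the 54 replication-dependent members was -0.87 in input, -0.96 in m6A-tagged and -0.85 in unbound RNA, against -0.14, -0.15 and -0.04 over 12724 genes. The same median for the 10 other histones was -0.13, -0.23 and 0.65. Since 20 of the 64 members, all replication-dependent, reached 1 RPKM in WT columns only (7.22% of the 12724 genes did), these counts and medians are a description. The pooled differences carry no p-value.

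**Figure D3:**
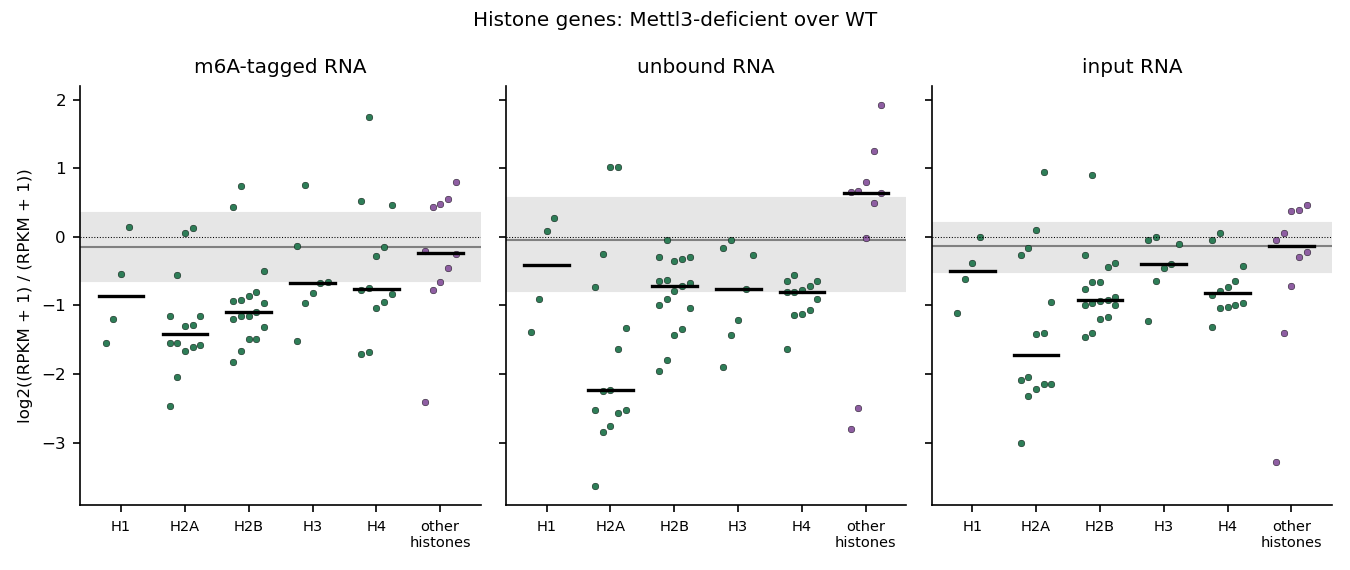
Mettl3-deficient over WT as log2((RPKM + 1)/(RPKM + 1)) of the pooled columns (y axis) for all 64 members, by histone class (x axis) and fraction (panels). Green points are replication-dependent genes, purple points the other histones, and black bars class medians. The grey line and band give the median and the quartiles of 12724 genes. In unbound RNA the 14 H2A genes have a median of -2.24 and the 10 other histones one of 0.65.

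The replacement variants of H3 and the H2A.Z family were abundant in both genotypes. H3f3b, which encodes H3.3, had 290.2, 749.6 and 366.9 RPKM in m6A-tagged, unbound and input RNA of Mettl3-deficient cells, against 213.9, 470.5 and 282.4 RPKM in WT cells. H3f3a, the second H3.3 gene, had 71.0, 279.1 and 150.7 RPKM in Mettl3-deficient and 112.5, 179.1 and 114.9 RPKM in WT cells. H2afz, which encodes H2A.Z, had 61.1, 280.4 and 101.6 RPKM in Mettl3-deficient and 84.3, 160.8 and 104.6 RPKM in WT cells. All 3 genes differed less than 2-fold between genotypes in every fraction. In each genotype they were highest in unbound RNA and lowest in m6A-tagged RNA. H2afv, the other H2A.Z gene, had 128.1, 575.0 and 142.8 RPKM in Mettl3-deficient and 72.9, 365.1 and 166.9 RPKM in WT cells, with the same order of fractions.

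The other H2A variants did not behave alike. H2afx encodes H2A.X, which is phosphorylated around DNA breaks. It had 88.2, 87.6 and 52.2 RPKM in m6A-tagged, unbound and input RNA of Mettl3-deficient cells, against 151.8, 36.2 and 86.9 RPKM in WT cells. H2afy encodes macroH2A1, a variant found in silent chromatin, and had 84.0, 27.8 and 50.5 RPKM in Mettl3-deficient and 100.4, 161.1 and 135.3 RPKM in WT cells. It was 5.64-fold lower in Mettl3-deficient unbound and 2.65-fold lower in input RNA, whereas H2afx was 2.38-fold higher in Mettl3-deficient unbound RNA. H2afy2, the gene of macroH2A2, stayed between 4.52 and 7.63 RPKM in the Mettl3-deficient columns and between 4.28 and 5.83 RPKM in the WT columns. H2afj encodes H2A.J and had 32.6, 69.4 and 26.9 RPKM in Mettl3-deficient and 37.9, 49.3 and 33.2 RPKM in WT cells, under 2-fold apart in each fraction.

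The linker genes outside the clusters differed in opposite ways. H1f0 encodes H1.0, the linker of cells that divide little. It had 163.1, 69.8 and 106.1 RPKM in m6A-tagged, unbound and input RNA of Mettl3-deficient cells, against 116.8, 17.7 and 76.3 RPKM in WT cells, and was 3.79-fold higher in Mettl3-deficient unbound RNA. H1fx encodes H1.10 and had 4.34, 2.22 and 0.984 RPKM in Mettl3-deficient and 27.5, 21.4 and 18.3 RPKM in WT cells. Its Mettl3-deficient values were 5.33-fold, 6.97-fold and 9.74-fold lower in the same order. The reads of all 18 libraries could not be solved for any of these 10 genes, so none of these genotype differences has a replicate check.

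**Figure D4:**
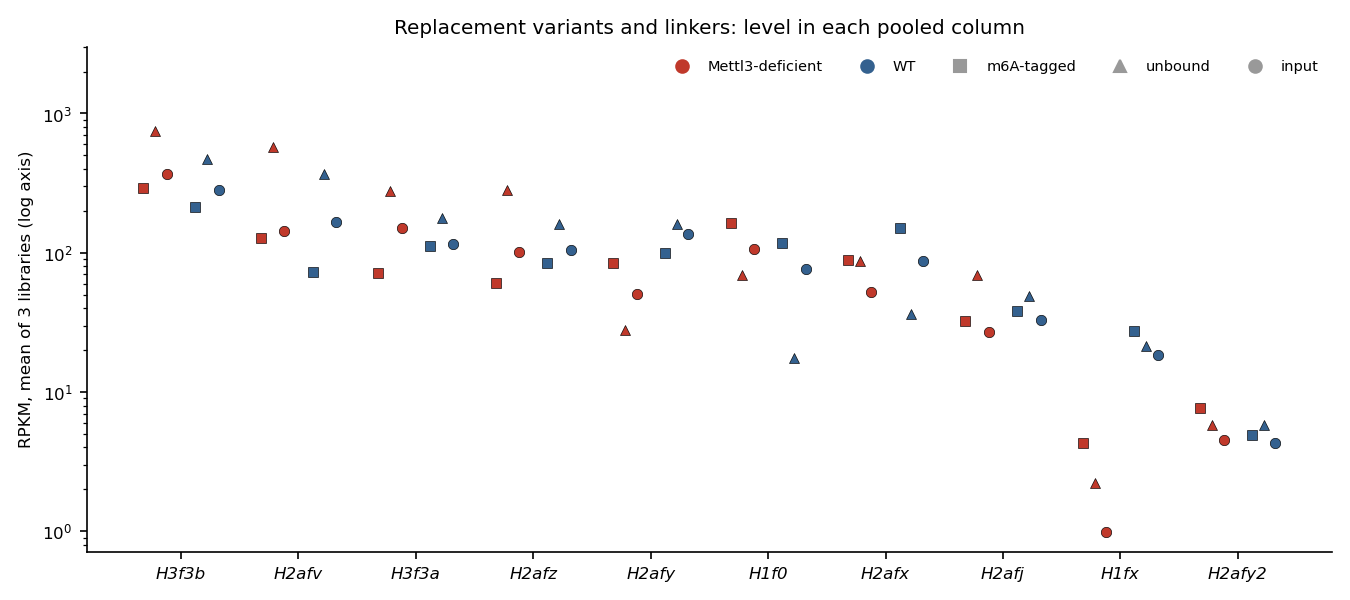
RPKM of the 10 replacement variants and linkers outside the clusters in the 6 pooled columns (y axis, log scale), ordered by mean level. Each point is the authors' mean of 3 libraries, with no error, red for Mettl3-deficient and blue for WT, and with the fraction given by the symbol. H1fx lies between 0.984 and 4.34 RPKM in Mettl3-deficient columns and between 18.3 and 27.5 RPKM in WT columns.

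Antibody binding was compared next. No solved member passed limma's adjusted p under 0.05 for m6A-tagged over input in either genotype. At an unadjusted p under 0.05 there were 3 members in Mettl3-deficient cells (4% of the 1826 genes) and 2 in WT cells (11.2%). All 3 m6A-tagged libraries were above input for 5 of 48 members in Mettl3-deficient cells (8.93% of genes) and for 3 of 48 in WT cells (4.87%), and below it for 1 of 48 in each (3.89% and 8.54%). Without Mettl3-deficient m6A-tagged library c 16 members lay above input in Mettl3-deficient cells, and without Mettl3-deficient input library b 11 did. In WT cells leaving out any 1 library gave 5 to 11 above and 2 to 7 below. With 1 library left out groups separate more easily, so these counts cannot be set against the shares from all libraries. For the genotype difference in m6A-tagged over input, limma called 0 members, and 0 had an unadjusted p under 0.05 (8.38% of genes). Summed over the 48 members, m6A-tagged RNA and input RNA were both lower in Mettl3-deficient cells. Since 20 of the 48 had reached 1 RPKM in WT columns only, this is a description. Of the 28 members that reached it in columns of both genotypes, limma called 0 lower in m6A-tagged and 1 lower in input RNA. Of the 991 solved genes of that kind it called 7 and 4. The 1 input call held in no fit without 1 library. No difference in the members' ratio of m6A-tagged to input RNA was detected with 3 libraries a group.

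Among the abundant members few passed 2-fold in m6A-tagged over input. In Mettl3-deficient cells H1fx was 2.69-fold higher and H3f3a 2.11-fold lower in m6A-tagged RNA, which is 1 of 16 in each direction (1.37% and 1.45% of 6295 genes). The reads of H1fx could be solved in Mettl3-deficient cells, with 9.56, 2.13 and 2.05 reads per M in m6A-tagged and 0.998, 0.996 and 0.955 in input libraries. These did not overlap (two-sided exact permutation p = 0.1, the smallest possible, adjusted p = 0.375), and with 5 RPKM added the pooled log2 ratio was 0.64. In WT cells Hist1h1c was 2.49-fold higher and H2afv 2.27-fold lower, again 1 of 16 each (3.69% and 5.23%). Over all 64 members, 4 were higher and 1 lower in Mettl3-deficient cells (2.15% and 1.15% of 12724 genes), and 6 higher and 3 lower in WT cells (6.29% and 5.75%). The genotype difference passed 2-fold upward for H2afv and H2afy and downward for H3f3a, 2 and 1 of 16 (7.31% and 2.91%), and over all 64 members for 8 upward and 7 downward (8.79% and 6.07%). For H2afv it was 1.03 on the log2 scale and fell under 2-fold when 5 RPKM were added or the columns were rescaled.

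H2A genes took a larger share of reads in unbound than in input RNA of WT cells. The 12 solved H2A genes together had 97.2, 74.2 and 110.7 reads per M in WT unbound and 34.1, 35.6 and 33.8 in WT input libraries, without overlap. In Mettl3-deficient cells the sums overlapped, at 28.2, 9.05 and 19.5 reads per M in unbound and 7.52, 20.4 and 4.03 in input libraries. In WT cells 13 of 48 solved members had all 3 unbound libraries above input, 9 of them among the 12 H2A genes, against 5.26% of the 1826 genes. In Mettl3-deficient cells 6 of 48 did, 4 of them H2A genes, against 5.59%, and 12, 11 and 10 did without Mettl3-deficient input library b, unbound library b and unbound library a. The 5.59% is for all libraries, and with 1 left out groups separate more easily. The median log2 ratio of the 12 H2A genes was 0.92 in Mettl3-deficient and 1.38 in WT cells, against -0.70 and -1.03 over all 1826 genes. Hist1h2an, for example, had 10.7, 6.34 and 11.8 reads per M in WT unbound and 2.66, 2.96 and 2.96 in WT input libraries. Hist1h2ab had 11.7, 8.77 and 16.7 in WT unbound and 4.30, 3.59 and 4.34 in WT input libraries. These H2A rows include near-identical copies, so they are not independent of each other. limma called no member in WT unbound over input, with 5 at an unadjusted p under 0.05 (28.3% of genes).

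In Mettl3-deficient cells limma called 1 member higher in unbound than in input RNA, against 0.931% of genes. This was Hist3h2ba, an H2B gene, with 8.51, 3.73 and 3.84 reads per M in Mettl3-deficient unbound and 0.665, 2.67 and 0.531 in Mettl3-deficient input libraries (limma log2 difference 2.20, SE 0.53, adjusted p = 0.021). The call held in 3 of 6 fits without 1 library and was lost without Mettl3-deficient input library a or c or Mettl3-deficient unbound library a, with adjusted p up to 0.095. Of the 16 abundant members 6 stood 2-fold above and 2 below input in Mettl3-deficient unbound RNA (18.5% and 29.5% of genes), and 3 higher and 3 lower in WT cells (4.61% and 25.5%). Over all 64, 12 were higher and 2 lower in Mettl3-deficient cells (11% and 34.5% of 12724 genes), and 12 higher and 3 lower in WT cells (3.18% and 34.9%). H2afv led in Mettl3-deficient cells at 4.01-fold. H1f0 and Hist1h1c were lowest in WT cells, 4.14-fold and 4.03-fold below input.

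Set against unbound RNA, m6A-tagged RNA was low for the H2A genes of WT cells. All 3 m6A-tagged libraries lay below unbound for 11 of 48 members in WT cells, 8 of them H2A genes, against 6.24% of genes, and above it for 3 (15.5%). In Mettl3-deficient cells 2 of 48 lay below (3.89%) and 3 above (26.1%), with 3 to 8 above when any 1 library was left out. These shares are for all libraries only. limma called Hist1h4h, an H4 gene, lower in WT m6A-tagged than unbound RNA, 1 of 48 members against 3.01% of genes. It had 0.0857, 0.119 and 0.0330 reads per M in WT m6A-tagged libraries, against 2.12, 1.69 and 1.52 in WT unbound libraries (limma log2 difference -3.41, SE 0.82, adjusted p = 0.012). This call held in 6 of 6 fits without 1 library, with adjusted p from 0.022 to 0.043, and the count was 3 without WT m6A-tagged library a and 2 without WT unbound library c. In Mettl3-deficient cells limma called no member, with 4 at an unadjusted p under 0.05 (29.3% of genes) and 1 call without Mettl3-deficient unbound library b or m6A-tagged library c.

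**Figure D5:**
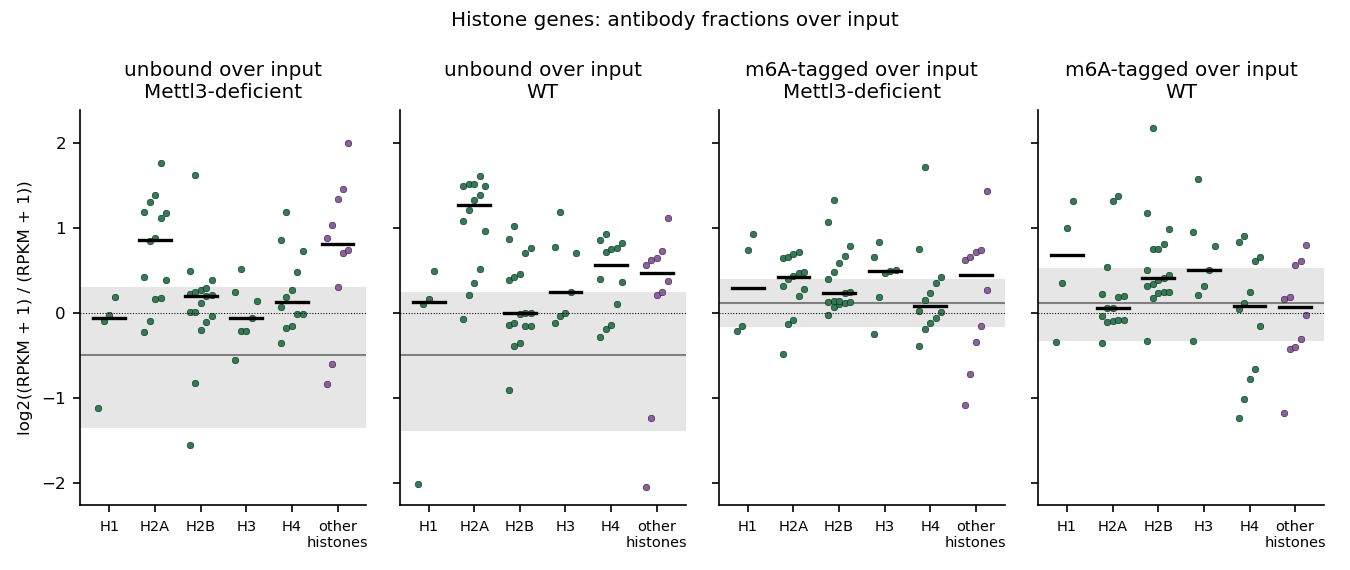
Unbound over input and m6A-tagged over input as log2((RPKM + 1)/(RPKM + 1)) of the pooled columns (y axis) for all 64 members, by histone class (x axis), in Mettl3-deficient and WT cells (panels). Green points are replication-dependent genes, purple points the other histones, and black bars class medians. The grey line and band give the median and the quartiles of 12724 genes. The 14 H2A genes have a median of 0.86 in Mettl3-deficient and 1.27 in WT unbound over input, where the median of all genes is -0.50 in both.

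Among the 16 abundant members, m6A-tagged RNA was 2-fold higher than unbound RNA for 4 and lower for 6 in Mettl3-deficient cells (33.7% and 16.9% of 6295 genes). In WT cells it was higher for 3 and lower for 4 (31.5% and 19.3%). Over all 64 it was higher for 7 and lower for 7 in Mettl3-deficient cells (40.1% and 9.88% of 12724 genes), and higher for 6 and lower for 15 in WT cells (41.5% and 12.6%). Hist1h1c stood 3.64-fold higher in Mettl3-deficient and 10.0-fold higher in WT m6A-tagged RNA, and H1f0 2.32-fold and 6.31-fold higher. H2afv stood 4.46-fold lower in Mettl3-deficient and 4.95-fold lower in WT m6A-tagged RNA. The comparisons of one fraction with the other 2 share libraries, so their values are not separate evidence.

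Genes of S phase and of histone mRNA processing were set beside the histones. Of 32 S phase and proliferation genes 28 had a mean of at least 10 RPKM. In input none of the 28 stood 2-fold above WT in Mettl3-deficient cells and 1 stood below, E2f1, which encodes a transcription factor of the G1 to S transition, with 11.3 RPKM in Mettl3-deficient and 31.0 RPKM in WT input. The median log2 difference of the 28 was -0.11 in input, -0.16 in m6A-tagged and -0.72 in unbound RNA, with 3 lower in m6A-tagged and 3 higher and 11 lower in unbound RNA. Beside these stand 6.67% of 6295 genes lower in input, 7.15% lower in m6A-tagged, and 19.7% higher and 22.7% lower in unbound RNA. Of 38 genes of histone mRNA 3' processing, histone transcription and histone chaperones 23 had a mean of at least 10 RPKM, of which 1 was higher and 1 lower in Mettl3-deficient input (2.38% and 6.67% of 6295 genes), with a median of -0.16. In m6A-tagged RNA 0 of the 23 were higher and 2 lower (6.02% and 7.15%), with a median of 0.00. In unbound RNA 4 were higher and 12 lower (19.7% and 22.7%), with a median of -1.0. Lsm10, a subunit of the U7 snRNP that cuts histone pre-mRNA, had 75.9 RPKM in Mettl3-deficient and 32.5 RPKM in WT input. Set, a histone chaperone, had 26.6 RPKM in Mettl3-deficient and 63.3 RPKM in WT input. Npm1, a nucleolar histone chaperone, was 2-fold lower in Mettl3-deficient m6A-tagged RNA, with 216.0 RPKM there and 438.6 RPKM in Mettl3-deficient input.

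Markers of other blood cells also differed by genotype, in the direction of the histones. The 10 neutrophil markers summed to 1428, 2637 and 1207 RPKM in m6A-tagged, unbound and input RNA of Mettl3-deficient cells, against 7826, 9905 and 6906 RPKM in WT cells. Of the 10, 9 were at least 2-fold lower in each fraction, against 7.15%, 22.7% and 6.67% of 6295 genes in the same order. The 6 eosinophil and basophil markers summed to 20.2, 46.0 and 15.6 RPKM in Mettl3-deficient and 814.0, 1171 and 784.0 RPKM in WT cells, with 4 of the 6 under 1 RPKM in each Mettl3-deficient column and 1 of 6 in each WT column. Cd48, whose product the sort selected against, had 7.24, 3.69 and 5.54 RPKM in Mettl3-deficient and 28.1, 11.1 and 15.6 RPKM in WT cells. In input, the Mettl3-deficient sum was also below WT for megakaryocyte (260.9 and 668.6 RPKM over 5 genes), erythroid (36.1 and 94.99 over 5), monocyte and macrophage (399.3 and 776.4 over 6) and T and NK cell markers (47.6 and 203.4 over 6). It was close for B cell markers (91.4 and 93.6 over 4) and higher for endothelial and stromal markers (59.3 and 23.4 over 6), as it was for HSC markers. In several of these lists 1 gene carried most of the input sum. It was Nkg7 for T and NK cells (46.2 and 187.8 RPKM) and Cd79b for B cells (90.6 and 84.7 RPKM). For endothelial and stromal cells it was Pecam1 (58.7 and 22 RPKM). The highest monocyte and macrophage value was 373.2 RPKM in Mettl3-deficient and 666.5 RPKM in WT input. For eosinophil and basophil markers it was 9.17 and 655.1 RPKM, in the same order. Most of the erythroid sum in Mettl3-deficient input (24.8 RPKM) and of the megakaryocyte sum in WT input (428.1 RPKM) also came from 1 gene. The part of any such cells in the histone result was not tested.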

How the data were processed

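Full-length cDNA of 18 libraries was made by Smart-seq2 and sequenced as paired reads of 150 bases, per the labels' protocols. The authors deposited RPKM values in 2 tables, 1 per genotype, with a column for each of the 3 fractions. Picard, edgeR and the mm10 build are named in the submitters' processing notes, without roles or versions. For the aligner, the annotation and reads that fit several genes, nothing is given in the sources used here.

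Each column proved to be the mean of 3 libraries with 1 read added per gene and library. The whole read numbers of the 3 libraries were searched for each low gene. Of 77979 values tried, 97.2% had exactly 1 solution, and the search was checked on simulated tables. Libraries are lettered by depth and carry no replicate number of the labels. Genes with at least 1 RPKM in any column and solved in all 18 libraries numbered 1826. They are genes with few reads, so results on them do not extend to abundant genes. RPKM and reads per M are shares of a library, so a lower value can also reflect more of other RNA. That 3 libraries of a group came from separate mice is stated in the design text only.

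Pooled columns were compared as log2(RPKM + 1), called at 2-fold among genes averaging 10 RPKM or more. The fixed plan foresaw no test for pooled columns other than exact permutation over solved libraries, and limma 3.58.1 (R 4.3.3) with a mean-variance trend was added after the data were seen. Python 3.11.15 with numpy 2.4.6 and pandas 2.3.3 did the rest. Every member with a mean of at least 10 RPKM is named with its 6 values. Of the lower ones solved in single libraries only some are named. Of the gene lists, members past 2-fold in m6A-tagged over input or in input by genotype are named, up to 6 per list. The members and the gene lists were chosen with earlier results of these data known. Symbols were matched to RefSeq (GRCm38.p6), where all 64 members had a row.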

Additional observations from a re-analysis of the deposited data

How the results depend on the processing

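The fold between pooled columns depended on the minimum level. Counting all genes with at least 1 RPKM in any column, in place of a mean of 10 RPKM, the histone members called by genotype numbered 20 in input, 28 in m6A-tagged and 30 in unbound RNA. With a mean of at least 50 RPKM they numbered 1, 0 and 3. For the fractions, the lower minimum gave 5 (Mettl3-deficient) and 9 (WT) in m6A-tagged over input, 21 (WT) in m6A-tagged over unbound, 14 (Mettl3-deficient) and 15 (WT) in unbound over input, and 15 in the genotype difference. The higher minimum gave 1 and 1, 6 and 4, and 3 and 3 in these pairs of genotypes, Mettl3-deficient first. These counts differ because other genes are counted. Adding 5 RPKM gave 1 in Mettl3-deficient m6A-tagged over input, where H1fx then stood at 0.64 on the log2 scale. Rescaling changed no such count by over 1.5 times. It moved the median log2 of 6295 genes by over 0.1, for example to 0.05 or 0.49, against 0.33 as reported, in Mettl3-deficient m6A-tagged over unbound and to 0.18, against 0.02, in unbound RNA by genotype. The share of calls that were higher went with it, at 28.2% by median-ratio scaling against 48.6% in Mettl3-deficient m6A-tagged over input, 2.28% by upper-quartile scaling against 15.3% in WT unbound over input, and 54.8% against 71.5% in the genotype difference.

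For limma, a minimum mean of 0.3 reads per M left 0 members in input, 0 in m6A-tagged and 4 in unbound RNA by genotype, and gave 2 in WT m6A-tagged over unbound. Adding 0.02 reads per M gave 1 in m6A-tagged RNA by genotype and 1 in Mettl3-deficient m6A-tagged over unbound. Adding 0.5 gave 7 in WT m6A-tagged over unbound and 2 in WT unbound over input. Leaving out 1 library gave 0 to 0 in input, 0 to 5 in m6A-tagged and 2 to 6 in unbound RNA by genotype. It gave 0 to 1 in Mettl3-deficient and 1 to 3 in WT m6A-tagged over unbound, and 0 to 1 in Mettl3-deficient unbound over input. The cause was not tested. Members without overlap between groups, counted in either direction without 1 library, numbered 25 to 36 in input, 21 to 28 in m6A-tagged and 26 to 31 in unbound RNA by genotype. They numbered 7 to 17 (Mettl3-deficient) and 7 to 13 (WT) in m6A-tagged over input, 6 to 10 (Mettl3-deficient) in m6A-tagged over unbound, and 7 to 13 (Mettl3-deficient) in unbound over input. With 1 library left out groups separate more easily, and no share over all genes is given for these counts. A minimum mean of 0.3 gave 3 in Mettl3-deficient m6A-tagged over unbound. No paired analysis was possible because the solved libraries carry no replicate number. No named member changed direction while called, under any alternative run.

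With few reads per gene, 3 libraries a group and depths down to 9.42 M reads, differences of low members are not detectable unless large. Genotype differences of the 10 other histones rest on pooled columns alone.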
